A study of Homo sapiens with 48 samples.

Results

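THP1 cells, a human monocytic leukaemia line grown in suspension, were transfected with an siRNA called INTG or with either of 2 control siRNAs, NC1 and NC2, and the 24 expression arrays of this transfection series are described here out of 48 arrays in the study. The members were chosen by their titles: 8 arrays with INTG, 8 with NC1 and 8 with NC2. Each group came from 4 experiments started from different culture passages, with 2 wells per siRNA and experiment. Experiments 1 and 2 formed a discovery phase hybridised on one slide, and experiments 3 and 4 a validation phase on the other slide. The other 24 arrays hold the same design in Huh7, a human hepatoma line.

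All 3 groups were treated alike apart from the siRNA: 300000 cells per well in serum-reduced medium, Lipofectamine 2000, 50 pmol siRNA, and RNA collected after 2 days. NC1 and NC2 are the commercial Silencer Select Negative Controls #1 and #2. INTG was directed at a transcript from the interval between C5 and TRAF1 on chromosome 9. It is a single siRNA sequence in a single cell line, and wells without transfection were not analysed here. No probe of the array is named for the target transcript, so its own level was not measured.

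An siRNA is loaded into an Argonaute protein, which uses the antisense strand to find and cut RNA of matching sequence. Pairing of only the seed, the bases near the 5′ end of that strand, can also lower partly matched messages. C5 encodes a complement protein, and TRAF1 an adaptor of tumour necrosis factor receptors. Monocytes such as THP1 carry complement receptors and respond to tumour necrosis factor, and the next protein-coding genes outward are PHF19, a Polycomb-associated protein, beyond TRAF1, and CNTRL, a centrosomal protein, beyond C5.

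The INTG target is shown because every comparison turns on this siRNA; the capitals mark the 7 bases, 14 to 20 of 21, that pair with the seed AGAGGCC of an antisense strand whose first base pairs with the last target base:
INTG target: aactacgtgaagaGGCCTCTg
The whole target was not found on either strand of 35116 RefSeq promoter windows (GRCh38.p14). In the RefSeq gene order on chromosome 9 the interval reads PSMD5, CUTALP, PHF19, TRAF1, the noncoding C5-OT1, C5, a noncoding gene and CNTRL.

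The labelled cell type was checked against marker genes. Of 12 monocytic markers on the array, 8 were detected (detection p under 0.01) on all 24 arrays and none was absent throughout. On the Huh7 arrays 7 of the 12 were detected on 0 of 24, among them the myeloid regulator SPI1 and the integrin ITGB2, which all 24 THP1 arrays detected. The other 5 (CEBPA, CEBPB, CD14, LYZ and CD68) were detected on all 24 Huh7 arrays, and only CD68 was higher in THP1. CD14 was detected on 16 of 24 THP1 arrays, and its mean log2 intensity was 5.85 there and 6.76 in Huh7. The means were 7.51 and 10.26 for LYZ, and 10.05 and 11.65 for CEBPB. Of 16 hepatocyte markers, 13 were detected on no THP1 array and 1, FGA, on all 24. The INTG-minus-control log2 difference of FGA was -0.09, 0.01 and -0.26 in experiments 1 to 3. It was 1.52 in experiment 4, where the INTG arrays were dim. The summed level of the hepatocyte list ranged over 467 to 574 with NC1, 447 to 536 with NC2 and 436 to 848 with INTG, and that of the monocytic list over 21200 to 23200, 21200 to 23700 and 21100 to 22800. Of the defining markers of T cells, B cells, erythroid cells with megakaryocytes, and fibroblasts, 9 of 10, 6 of 7, 10 of 11 and 7 of 8 were detected on no THP1 array.

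The INTG arrays of experiment 4 stood apart. The mean scanner signal of INTG arrays was 0.983, 0.986 and 1.06 times that of the controls in experiments 1 to 3, and 0.462 times in experiment 4, where INTG averaged 122.9 against 269.5 for NC1 and 262.8 for NC2. Fewer probes were detected there too, 8685.5 on average over the 2 wells, against 10860 to 13708.5 for every other pair of wells. After normalization the median INTG-minus-control difference over 13524 tested probes was 0 on the log2 scale in experiments 1 to 3 and -0.28 in experiment 4. Its spread over probes (SD) was 0.14, 0.18, 0.28 and 0.79, and 2967 probes lay more than 1 log2 unit below the controls in experiment 4 against 0, 3 and 42 before. Results are therefore given with all 4 experiments, without experiment 4, and without its 2 dim INTG arrays only.

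**Figure D1:**
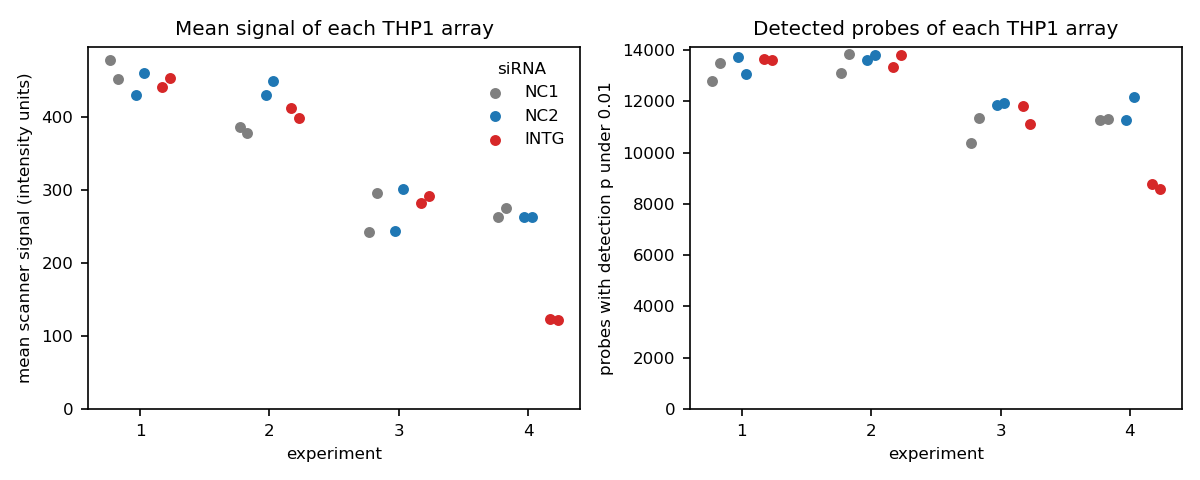
Mean scanner signal (left, intensity units) and number of detected probes (right) for each of the 24 THP1 arrays by experiment, 1 point per well, coloured by siRNA. The 2 INTG arrays of experiment 4 sit below every other array in both panels, at a mean signal of 124 and 122.

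A small group of messages was lower with INTG in THP1 cells, and fewer were higher. With all 4 experiments 5 probes were lower and 1 was higher with INTG than with the controls: CYB5R3 (by 2 probes), PNKD, ISCA1 and VCL fell, and TEX19 rose. These are 6 of 13524 probes, or 0.0444%, (5 lower, 0.037%; 1 higher, 0.00739%), at a Benjamini-Hochberg adjusted p under 0.05 in limma, with wells averaged and experiment as a block. Without experiment 4 the count was 19 or 0.14% (16 lower, 0.118%; 3 higher, 0.0222%), and without only its dim INTG arrays it was 36 or 0.266% (29 lower, 0.214%; 7 higher, 0.0518%). The 36 contained all of the 19 and all of the 6. With array brightness as a covariate over all 4 experiments the count was 29. Leaving out experiment 1, 2 or 3 instead gave 0 in limma (1165, 1061 and 1178 by unadjusted p). At an unadjusted p under 0.05, 1136 probes (8.4%) were lower and 476 (3.52%) higher with 4 experiments, and 940 (6.95%) lower and 821 (6.07%) higher without experiment 4. NC2 differed from NC1 at 0 probes in limma (0%), and at 237 (1.75%) by unadjusted p. Without experiment 4 and without the dim INTG arrays that unadjusted count was 821 and 1012, against 1761 and 1633 for INTG. In this bulk RNA a smaller share of cells holding a message and less of it per cell cannot be told apart. The p-values measure the spread of siRNA differences between the experiments that each fit held.

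CYB5R3 encodes the NADH-dependent reductase of cytochrome b5, which works on the endoplasmic reticulum and outer mitochondrial membrane. Its first probe read 8.65, 9.0, 8.62 and 8.54 with NC1 in experiments 1 to 4, 8.48, 8.91, 8.76 and 8.52 with NC2, and 7.68, 7.82, 7.84 and 7.56 with INTG, in log2 intensity. All 4 INTG values were below all 8 control values. The log2 difference was -0.96 (SE 0.0717, n = 4 experiments, limma adjusted p = 0.0119), which left 51.4% of the control level. A brighter CYB5R3 probe fell by 0.83 (SE 0.08, limma adjusted p = 0.0416), and the first probe's difference without experiment 4 was again -0.96.

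PNKD, mutated in a familial paroxysmal dyskinesia, read 7.77, 7.78, 7.84 and 8.42 with NC1, 7.95, 7.86, 7.95 and 8.07 with NC2 and 7.17, 6.89, 7.16 and 7.45 with INTG. The groups did not overlap. Its difference was -0.79 (95% interval -0.99 to -0.59, limma adjusted p = 0.0416), or 57.8% of the control level, and the same without experiment 4. Another PNKD probe did not follow, at -0.41 (adjusted p = 0.435) with 4 experiments and -0.08 without experiment 4.

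ISCA1 is a mitochondrial protein that helps build iron-sulfur clusters. It read 7.11, 7.14, 7.40 and 7.32 with NC1, 7.03, 7.08, 7.40 and 7.41 with NC2 and 6.59, 6.55, 6.70 and 6.82 with INTG. No INTG value reached a control value, and the difference was -0.57 (SE 0.0598, limma adjusted p = 0.0416). Another ISCA1 probe gave -0.17 (adjusted p = 0.64).

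VCL encodes vinculin, which ties integrin adhesions to actin. Its levels were 10.84, 10.44, 10.86 and 10.62 with NC1, 10.88, 10.46, 10.72 and 10.70 with NC2 and 10.34, 10.00, 10.28 and 10.03 with INTG. INTG was lower than both controls within each experiment, by -0.52, -0.45, -0.51 and -0.63, and overall by -0.53 (SE 0.0595, limma adjusted p = 0.044). Another VCL probe gave -0.45 (limma adjusted p = 0.413), with 0.15 in experiment 3 and -1.24 in experiment 4, where neither INTG array detected it. Without experiment 4 that probe had -0.19 (limma adjusted p = 0.499).

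TEX19, a gene of testis and placenta with a role in retrotransposon control in mouse, was the exception in direction. It read 6.94, 6.49, 6.90 and 7.18 with NC1, 6.97, 6.68, 6.55 and 7.05 with NC2, and 7.88, 7.43, 7.58 and 7.74 with INTG. Every INTG value exceeded every control value. The difference was 0.81 (SE 0.0882, limma adjusted p = 0.0416), or 175% of the control level, and 0.87 without experiment 4.

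**Figure D2:**
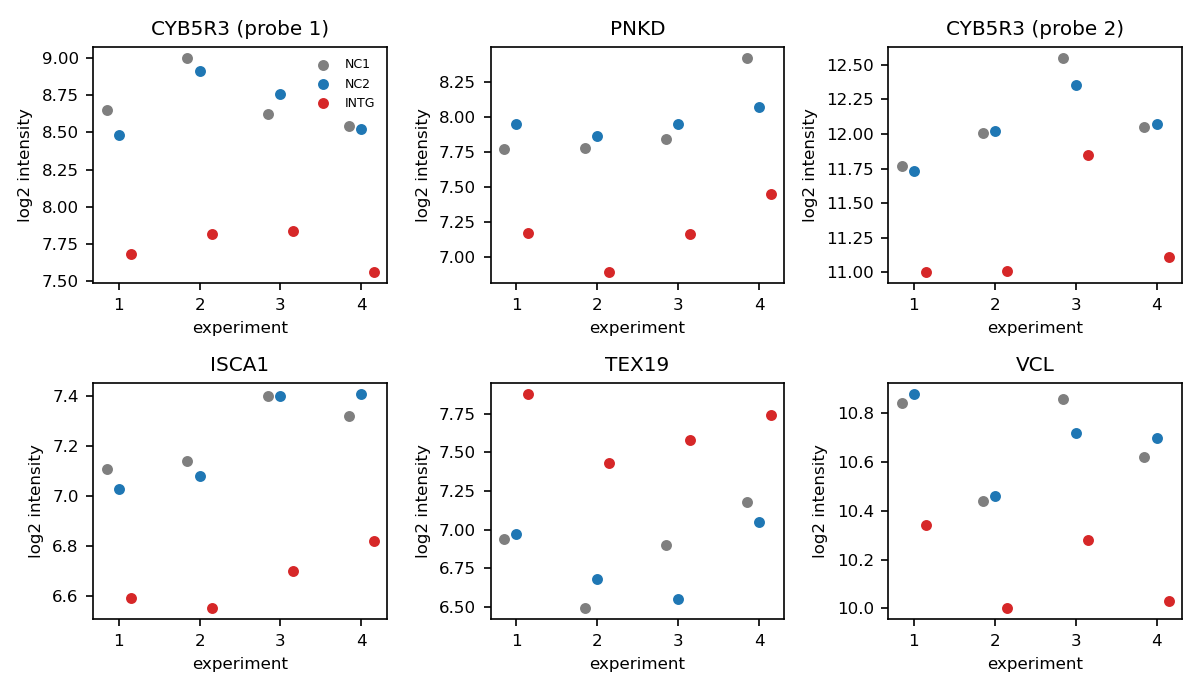
Log2 intensity of the 6 probes past the threshold with 4 experiments, each value the mean of 2 wells, for NC1, NC2 and INTG by experiment; vertical scales differ and do not start at 0. INTG lies below both controls in all 4 experiments for CYB5R3 (2 probes), PNKD, ISCA1 and VCL, and above both for TEX19.

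The 30 further probes were past the threshold without experiment 4 or without its dim arrays but not with all 4 experiments, so the differences given for them are those of experiments 1 to 3 unless stated. Over the 36 probes, 26 were detected on both INTG arrays of experiment 4, 5 on 1 and 5 on neither. Differences of more than 1 log2 unit occurred at 12 of the 36 in experiment 4 and at 2 in experiments 1 to 3. Over all 4 experiments INTG was below both controls every time at 28 of the 36 and above both at 5, where 6.34% and 2.51% of all tested probes were so; those 4 experiments include the ones that chose the probes, so this is a description.

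The further lowered genes are given in order of their roles, and no such grouping was tested. SSR1, a subunit of the translocon-associated protein complex, read 9.99, 9.98 and 10.14 with NC1, 10.09, 9.93 and 10.15 with NC2, and 9.52, 9.17 and 9.63 with INTG in experiments 1 to 3, a difference of -0.61 (SE 0.0742, limma adjusted p = 0.0406). In experiment 4 SSR1 stood only 0.19 below the controls. SLC35B1, the ATP carrier of the endoplasmic reticulum membrane, fell by 0.51 (limma adjusted p = 0.0424), and SLC39A1, a zinc importer of the plasma membrane, by 0.53 (limma adjusted p = 0.0424). For both, INTG was below both controls in all 4 experiments, with -0.88 and -0.80 in experiment 4. NPC2, which hands cholesterol out of the lysosome, fell by 0.50 (limma adjusted p = 0.0424). LAMP1, an abundant lysosomal membrane protein, had -0.43 (adjusted p = 0.0574 without experiment 4, 0.0345 without the dim arrays). The LAMP1 differences in experiments 1 to 4 were -0.36, -0.49, -0.43 and -0.54, close to each other and negative throughout.

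PLCG2, the phospholipase C isoform of blood cells, had differences of -0.49, -0.84, -0.42 and -1.05 in the 4 experiments, and the value without the dim arrays was past the threshold (adjusted p = 0.0346). PDPK1, the kinase that activates AKT, had -0.47, -0.59, -0.44 and -0.37 (adjusted p = 0.0328 without the dim arrays). RRAS, a small GTPase of the Ras family, had -0.50 in experiments 1 to 3 (adjusted p = 0.0537 there and 0.0328 without the dim arrays). KCTD5 and FBXW11 are adaptors of cullin ubiquitin ligases. KCTD5 fell by 0.57 (limma adjusted p = 0.0424) and FBXW11 by 0.46 (limma adjusted p = 0.0424), and at these probes INTG was below both controls in all 4 experiments. Another FBXW11 probe had -0.46, -0.57, -0.17 and 0.49 (adjusted p = 0.171 without experiment 4). Other PDPK1 and KCTD5 probes gave -0.28 and -0.16 without experiment 4 (adjusted p = 0.223 and 0.371).

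KPNA3, an importin alpha, read 8.89, 8.01 and 7.59 with NC1, 8.71, 8.03 and 7.82 with NC2 and 8.19, 7.31 and 6.96 with INTG in experiments 1 to 3. It was lower within each experiment and fell by 0.69 (SE 0.0786, limma adjusted p = 0.0327), while levels shifted between experiments by more than that. TOB1, an antiproliferative protein that binds the CCR4-NOT deadenylase, fell by 0.65 (limma adjusted p = 0.0327). In experiment 4 TOB1 with INTG, at 8.27, lay between NC2 at 8.26 and NC1 at 8.51. CNOT11, a subunit of CCR4-NOT itself, had -0.52, -0.56, -0.37 and -0.68 in the 4 experiments (adjusted p = 0.0291 without the dim arrays). CSTF3, a subunit of the factor that cleaves messages before polyadenylation, had -0.40 (adjusted p = 0.0492 without the dim arrays) at this probe, and 0.06, -0.05 and 0.07 at its other 3 probes. The histone gene H2BC12 fell by 0.51 (limma adjusted p = 0.0424) at this probe and had -0.25 at another (adjusted p = 0.231); its H2B relatives are close in sequence, and a probe can read more than 1 of them.

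S100A8, a subunit of the myeloid alarmin calprotectin, read 7.50, 8.88, 8.23 and 6.63 with NC1, 6.92, 8.45, 7.75 and 6.16 with NC2, and 6.42, 7.74, 7.46 and 4.61 with INTG. The control levels moved over more than 2 log2 units between experiments, and INTG was lowest within each. The difference was -0.75 without experiment 4 (SE 0.0821, limma adjusted p = 0.0327) and -1.01 with it (adjusted p = 0.124). Neither INTG array of experiment 4 detected S100A8. Against NC1 the difference in experiments 1 to 3 was -1.0 and against NC2 -0.50. ADA2, a secreted adenosine deaminase of myeloid cells, had -0.49 (adjusted p = 0.049 without the dim arrays).

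Of these 33 genes 11 lay outside the rule for named genes and were added after their values were seen: ADA2, CNOT11, CSTF3, FAM117B, FBXW11, KCNMB1, OLIG1, PRICKLE4, RRAS, SLC35B1 and TOMM5. The remaining lowered probes were SEL1L3 (-0.48, limma adjusted p = 0.0406), and, past the threshold without the dim arrays, FAM117B (-0.46), KCNMB1 (-0.46), OLIG1 (-0.46), TOMM5 (-0.45), PRICKLE4 (-0.44) and a probe with no single gene symbol. TOMM5 is a small subunit of the mitochondrial import pore. KCNMB1 is a subunit of a potassium channel, and OLIG1 a transcription factor of oligodendrocytes; OLIG1 had -2.18 in experiment 4, where neither INTG array detected it. FAM117B differed by -0.35, -0.57, -0.44 and -0.02.

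Among the raised genes FXR1, an RNA-binding protein of the fragile X family, read 9.60, 9.49, 9.43 and 9.51 with NC1, 9.34, 9.09, 9.20 and 9.15 with NC2 and 10.07, 9.75, 9.67 and 9.73 with INTG. INTG was highest in each experiment. Its difference was 0.45 with 4 experiments (adjusted p = 0.07) and 0.47 without the fourth (adjusted p = 0.0588, and 0.0345 without the dim arrays). NC2 lay below NC1 every time, so the FXR1 difference was 0.30 against NC1 and 0.61 against NC2. Another FXR1 probe gave 0.14 (adjusted p = 0.403). FAM43A rose by 0.47 (limma adjusted p = 0.0406) in experiments 1 to 3 and stood at -0.17 in experiment 4. LRRC3B, a leucine-rich repeat protein, rose at a probe by 0.49 (limma adjusted p = 0.0424) and had 0.66 at another (adjusted p = 0.0537, and 0.0336 without the dim arrays). The LRRC3B probes were dim, and the first passed detection on 4 of the 8 arrays with NC1 and 6 with NC2. PTPRO, a receptor-type tyrosine phosphatase, had 0.62 (adjusted p = 0.0345 without the dim arrays) and was detected on 4, 4 and 5 of 8 arrays with NC1, NC2 and INTG. TVP23B, a Golgi membrane protein, had 0.32, 0.42, 0.46 and 0.09 in the 4 experiments (adjusted p = 0.0395 without the dim arrays). Without experiment 4 this probe had 0.48 against NC1 and 0.32 against NC2. Another TVP23B probe had 0.26, 0.48, 0.19 and -0.41 (limma adjusted p = 0.198 without the dim arrays).

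**Figure D3:**
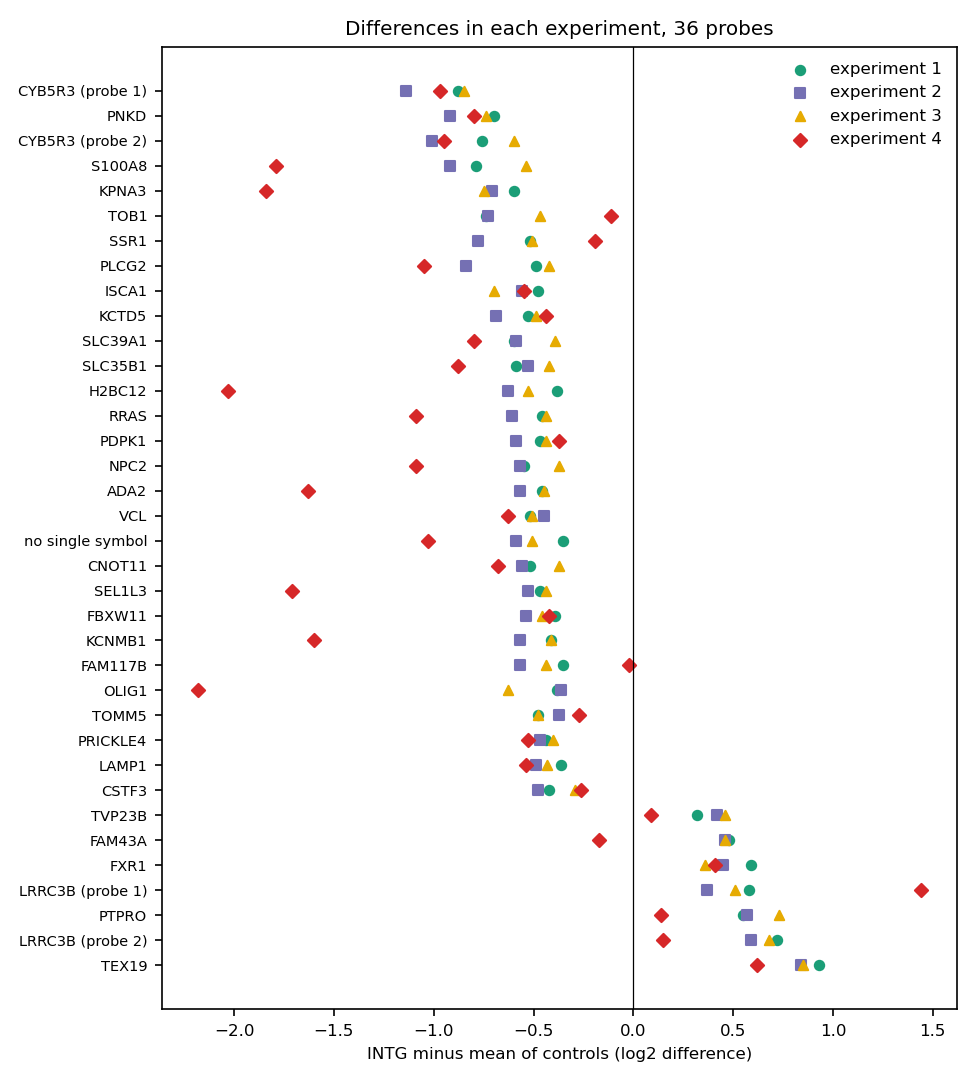
Log2 difference between INTG and the mean of NC1 and NC2 in each of the 4 experiments, for the 36 probes past the threshold in at least 1 of the 3 fits, ordered by the value without experiment 4. Experiments 1 to 3 lie between -1.14 and -0.29 for the lowered probes, and experiment 4 spreads from -2.18 to -0.02. For 30 of the 36 the fits that chose them left out experiment 4 or its dim arrays, which favours close values in experiments 1 to 3.

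The controls were then taken singly. Against NC1 alone and against NC2 alone 1 probe each passed the threshold (0.00739%), and it was the same CYB5R3 probe, at -0.98 (limma adjusted p = 0.0313) and -0.94 (limma adjusted p = 0.0415). Without the dim arrays 8 probes passed against both controls with the same sign. Among genes with the smallest p between the controls, EGR1, an immediate early transcription factor, was 0.50 higher with NC2 than NC1 (SE 0.102, unadjusted p = 0.00113), CDKN1A, the p21 inhibitor of cyclin-dependent kinases, 0.48 higher (unadjusted p = 0.00111) and GPR183, a lymphoid and myeloid oxysterol receptor, 0.55 higher (unadjusted p = 0.000973). Their INTG differences were 0.61, 0.51 and 0.76 against NC1 but 0.11, 0.03 and 0.22 against NC2. SYPL1, a vesicle membrane protein, and GNA13, a G protein subunit, were lower with NC2, by 0.29 and 0.39 (unadjusted p = 0.00363 and 0.00421). At this GNA13 probe INTG differed by -0.37 from NC1 and by 0.02 from NC2. Another GNA13 probe did not follow, with NC2 0.07 above NC1 (limma unadjusted p = 0.44). None of these control differences passed adjustment.

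The genes that flank the target were examined as a list. None of the 7 tested neighbours passed the threshold. C5 read 8.86, 8.33, 8.34 and 8.87 with NC1, 8.86, 8.33, 8.52 and 8.83 with NC2 and 8.99, 8.25, 8.44 and 8.96 with INTG. The C5 groups overlapped, and the difference was 0.04 (95% interval -0.10 to 0.19, limma adjusted p = 0.72). TRAF1 was detected on 0 of 24 arrays by either of its probes, as were RAB14, MEGF9 and GGTA1, so none of them could be compared. PHF19 read 8.02, 8.41, 8.81 and 8.64 with NC1, 8.18, 8.25, 8.61 and 8.67 with NC2 and 7.78, 8.08, 8.53 and 8.37 with INTG. INTG was lowest within each experiment, and the PHF19 difference was -0.26 (95% interval -0.42 to -0.10, limma adjusted p = 0.298). Its other 2 probes gave -0.04 and -0.12 with 4 experiments, and 0.19 and -0.19 without experiment 4, so the PHF19 probes differed in direction. FBXW2, an F-box protein, had 0.15 (unadjusted p = 0.0294, limma adjusted p = 0.394), with INTG above both controls in all 4 experiments. CNTRL had 0.18, STOM (stomatin, a membrane scaffold) 0.09, GSN (gelsolin, which severs actin filaments) -0.10 and PSMD5, a proteasome assembly chaperone, 0.09, each with an interval across 0.

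Gene lists for the cell type and for common responses were compared with all 9099 genes at their brightest probes, of which 337 (3.7%) were higher and 805 (8.85%) lower at an unadjusted p under 0.05. Without experiment 4 the shares were 6.26% and 7.06%. The median over all genes was -0.07 with 4 experiments and 0 without the fourth. In 35 of 37 lists no member passed the adjusted threshold, which 0.044% of all genes did. List medians without experiment 4 ran from -0.13 to 0.10, and 29 of the 37 were lower with experiment 4 than without it. The lists were chosen with earlier results of these data known, and some hold genes called above, so their counts are descriptions.

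The list of iron-sulfur and heme genes had 3 of 26 tested members lower at unadjusted p under 0.05 and 0 higher, beside 8.85% and 3.7% of all genes. Without experiment 4 it had 4 and 0, beside 7.06% and 6.26%. The 3 were CYB5R3 and ISCA1, which fell, and MMS19, a targeting factor of cytosolic iron-sulfur assembly, at -0.20 (unadjusted p = 0.0237). The list's median was -0.15 with 4 experiments and -0.08 without the fourth. In the respiratory chain SDHD, the membrane anchor of succinate dehydrogenase, had -0.49, -0.30, -0.64 and -0.55 (limma adjusted p = 0.0869), and 2 of 36 members were lower and 0 higher, against 3 and 1 without experiment 4. The respiratory chain median was -0.01.

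Of 8 tested S100 genes 3 were lower and 0 higher in both fits, with a median of -0.31 and of -0.13 without experiment 4. Besides S100A8 these were its partner S100A9 and S100A10, the annexin A2 ligand. S100A9 read 7.82, 9.52, 8.43 and 6.99 with NC1, 7.30, 9.13, 8.20 and 6.95 with NC2 and 6.89, 8.31, 7.87 and 4.51 with INTG. It was lowest with INTG each time, at -0.71 in experiments 1 to 3 (limma adjusted p = 0.0588) and -1.15 over all 4 (limma adjusted p = 0.275). S100A10 had -0.16 and -0.30 in the same fits (adjusted p = 0.359 and 0.373).

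Of 9 tested cytokine genes 3 were lower and 0 higher at unadjusted p under 0.05 (2 and 1 without experiment 4), and the list's median was -1.32 in experiment 4 against -0.10, 0.01 and 0.04 in experiments 1 to 3. IL1B had -0.23, -0.27, -0.55 and -1.52, and TNF -0.29, -0.09, -0.37 and -1.46; neither was detected on an INTG array of experiment 4. In that experiment the median of all tested probes was -0.28, and it was -0.60 and -0.95 over the dimmest and next dimmest of 4 equal sets by control level. Of 22 genes of tumour necrosis factor and NF-kappaB signalling 3 were lower and 0 higher in both fits. TNFAIP3, the feedback inhibitor A20, had -0.36, -0.33 and -0.34 before -1.96, and TAB1, a partner of the kinase TAK1, had -0.35, -0.31, -0.32 and -0.28 (limma adjusted p = 0.277). TAB1 had nearly the same difference in every experiment. Of 28 interferon and RNA-sensing genes 3 were lower and 0 higher (1 and 0 without experiment 4), among them ISG15 at -0.46 (unadjusted p = 0.0354, limma adjusted p = 0.403) and IFIT1 at -0.23. The RNA interference machinery had 2 of 14 genes lower and 0 higher (1 and 1 without experiment 4), XPO5, the exporter of microRNA precursors, at -0.18 and TNRC6C, a silencing scaffold, at -0.21.

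The myeloid identity counts stand beside 3.7% of all genes higher and 8.85% lower at an unadjusted p under 0.05. Without experiment 4 those shares were 6.26% and 7.06%. Of 24 surface and granule genes 1 was higher, CD68 at 0.21 (unadjusted p = 0.00998, limma adjusted p = 0.344), and 0 lower, against 1 and 2 without experiment 4. Of 12 myeloid transcription factors MYB was higher at 0.16 and BATF3 lower at -0.15, both short of the adjusted threshold (0.372 and 0.399). The HLA class II list had 0 of 8 tested genes past an unadjusted p of 0.05 with 4 experiments and 1, higher, without the fourth, and its median was 0.01 without experiment 4 and -0.25 with it. The 11 housekeeping genes had 0 in either direction and a median of 0.02.

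The lysosomal list had 4 of 27 genes lower and 0 higher (5 and 0 without experiment 4), namely LAMP1, NPC2, the sialidase NEU1 at -0.40 (limma adjusted p = 0.186) and the protease CTSB at -0.65 (limma adjusted p = 0.407). CTSB had -0.26, -0.35, -0.12 and -1.86, with the largest difference in experiment 4. Another CTSB probe had -0.33, -0.38, -0.41 and -0.71 (limma adjusted p = 0.168, and 0.0796 without experiment 4). Of 28 translocon and signal sequence genes SSR1 was lower and SRPRA, a receptor subunit for the signal recognition particle, higher at 0.43 (limma adjusted p = 0.12). SRPRA stood above both controls in all 4 experiments. Without experiment 4 the list had 1 lower and 2 higher. The unfolded protein response had 5 of 24 genes lower and 0 higher, and 2 and 0 without experiment 4. The chaperone HSPA5 had -0.15, -0.28, 0.04 and -0.46.

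Of 41 adhesion and actin genes 2 were lower and 2 higher in both fits. VCL fell, ILK, the integrin-linked kinase, had -0.22 (limma adjusted p = 0.342), and ITGA5, the fibronectin receptor subunit, and WASL, an actin nucleation factor, had 0.37 and 0.23 (limma adjusted p = 0.231 and 0.284). In phosphoinositide and phospholipase signalling 3 of 28 were lower, PLCG2, PDPK1 and the adaptor SHC1 at -0.44 (limma adjusted p = 0.121), and 2 higher. Without experiment 4 the counts were 3 and 0. Immediate early genes were split, with 3 of 21 lower and 3 higher (3 and 5 without experiment 4). FOS, an AP-1 subunit, had 0.35, 0.67, 0.40 and 0.41 (limma adjusted p = 0.12), above both controls every time. TOB1 belonged to the same list and was lower, as given above.

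Counts for the cell cycle lists and those after them stand beside 3.7% of all genes higher and 8.85% lower at an unadjusted p under 0.05. These shares were 6.26% and 7.06% without experiment 4. Of 17 genes of the G1 phase 4 were higher, among them the cyclin CCND1 at 0.32 (limma adjusted p = 0.174) and CDKN1A at 0.27, and 2 were lower, the factors E2F5 at -0.38 (limma adjusted p = 0.168) and E2F2 at -0.32. The counts were the same without experiment 4. CDKN1A was higher mainly against NC1, as its values against each control above show. Of 39 genes of G2 and mitosis the kinesin KIF20A was lower at -0.38 (limma adjusted p = 0.135) and MAD2L1, a checkpoint protein, higher at 0.17, against 2 lower and 3 higher without experiment 4. The 39 replication genes had 3 lower and 0 higher (3 and 2 without experiment 4), with a median of 0.00. Cholesterol and fatty acid synthesis had the highest median without experiment 4, at 0.10, with 3 of 21 genes higher and 1 lower in both fits. The higher were HMGCS1 at 0.25, MSMO1 at 0.20 and INSIG1 at 0.17 (limma adjusted p = 0.373, 0.39 and 0.393). Another INSIG1 probe had -0.37, and -0.06 without experiment 4. Of 26 glycolysis and hypoxia genes 3 were higher and 0 lower (4 and 0 without experiment 4), with BNIP3L, a mitophagy receptor, at 0.42 (limma adjusted p = 0.275).

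**Figure D4:**
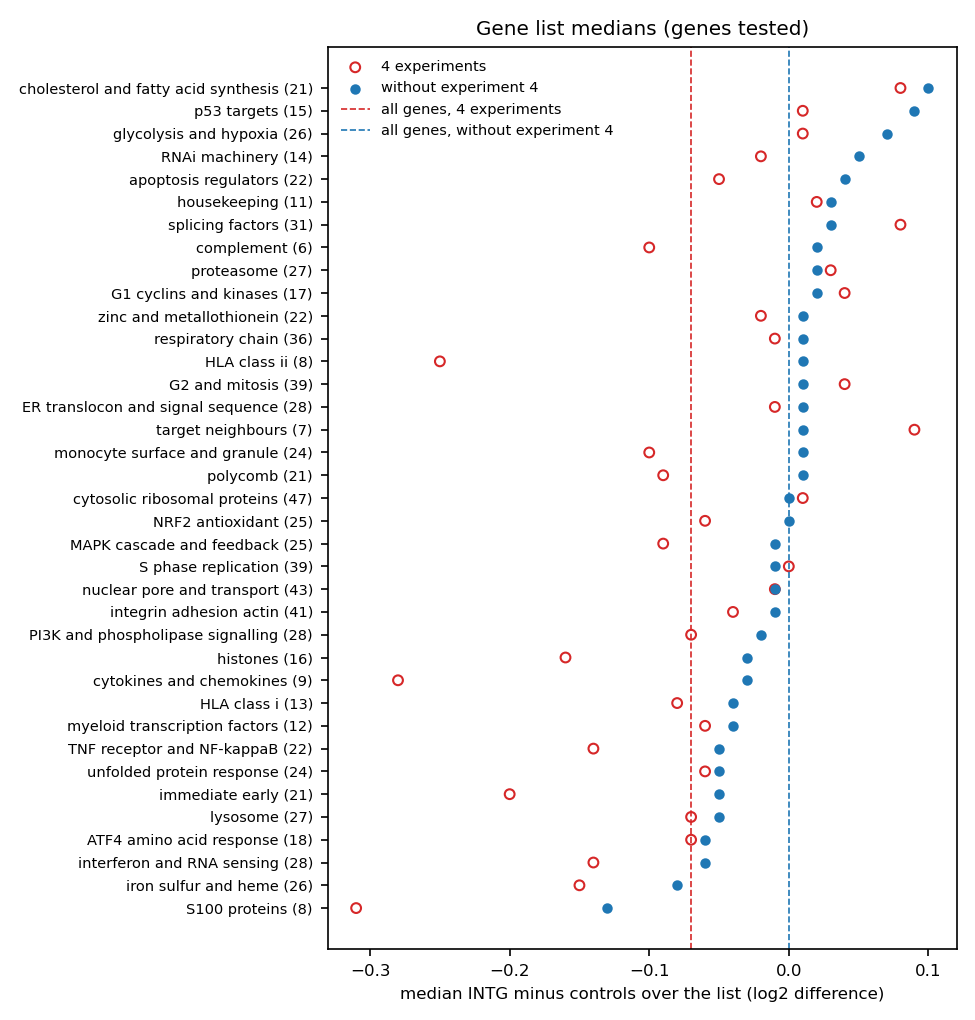
Median log2 difference between INTG and the controls over each of 37 gene lists, with 4 experiments (open circles) and without experiment 4 (filled), the number of tested genes in brackets; dashed lines are the medians over all 9099 genes, -0.07 and 0. Most lists shift left when experiment 4 is included, and the S100 list lies lowest in both.

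The 2 phases were compared next. Discovery alone gave 282 probes past the threshold (2.09%), 178 lower (1.32%) and 104 higher (0.769%), and validation alone gave 0 in limma (0%; 900 by unadjusted p, 6.65%). Of the 282, 215 had the same sign in validation and 61 also an unadjusted p under 0.05 there. By direction, 52 of 178 falls and 9 of 104 rises were repeated. Of all tested probes 746 (5.52%) were lower and 154 (1.14%) higher at that p in validation. Validation as a whole thus also held more falls than rises. Experiment 3 alone had the discovery sign for 152 of the 178 falls and 67 of the 104 rises, and experiment 4 for 164 and 45. Of all tested probes 49.2% lay below and 50.8% above the controls in experiment 3, and 69.9% and 30.1% in experiment 4. The repeated falls of largest size in discovery were CYB5R3, S100A8, PNKD, PLCG2 and KPNA3. CYB5R3 went from -1.01 in discovery to -0.91 in validation, and KPNA3 from -0.66 to -1.30, with -0.75 in experiment 3 and -1.84 in experiment 4. The repeated rises of largest size were TEX19, FXR1, FOS, LRRC3B and CDC42EP3, an effector of the GTPase CDC42. TEX19 had 0.88 in discovery and 0.74 in validation, and CDC42EP3 0.46 and 1.14, with 1.43 in experiment 4. The test of the difference between phases passed adjustment at 0 probes in limma (0%; 1137 by unadjusted p, 8.41%).

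Huh7 cells received the same 3 siRNAs. Of the 36 probes 29 were also tested there; 28 passed the threshold in Huh7 with the sign seen in THP1 and 0 with the other sign, where 21.4% of the 11542 probes tested in both lines passed in Huh7. All 25 shared falls were falls in Huh7, as were 11.5% of all shared probes, and 3 of 4 shared rises were rises, as were 9.94%, the fourth being TVP23B at 0.24 (limma adjusted p = 0.109). Of the 25 falls 22 were larger in Huh7, and their median was -0.98 there against -0.57 in THP1. The difference between lines passed adjustment at 9 of the 29 probes (2.6% of all shared probes), and in all 9 the fall in THP1 was the smaller.

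PNKD fell by 2.04 in Huh7 and 0.79 in THP1, a difference of 1.25 (limma adjusted p = 0.0016). SSR1 fell by 1.64 in Huh7, against -0.50 in THP1 with 4 experiments (limma adjusted p of the difference = 0.00342). SLC39A1 fell by 1.54 in Huh7 and had -0.59 in THP1 (limma adjusted p = 0.000825). CYB5R3, KCTD5, PRICKLE4, ISCA1 and PDPK1 also had smaller falls in THP1. VCL and TEX19 did not differ between lines past the threshold, with 0.16 (THP1 minus Huh7; 95% interval -0.05 to 0.36) for VCL and 0.17 (95% interval -0.12 to 0.45) for TEX19. S100A8, ADA2, KCNMB1, OLIG1, PTPRO and LRRC3B were not among the probes tested in Huh7. Outside the 36, PHF19 fell by 0.77 in Huh7 at its first probe, 0.50 more than in THP1 (limma adjusted p = 0.0175). The other PHF19 probes had -0.10 and -0.84 in Huh7. SPRY4, a feedback inhibitor of ERK signalling, had 0.71 in Huh7 and -0.39 in THP1 (limma adjusted p = 0.000825). In THP1 SPRY4 was detected on 3, 4 and 1 of 8 arrays with NC1, NC2 and INTG. Without the dim arrays 14 of the 29 differed between lines (4.53% of all shared probes), again all with the smaller fall in THP1.

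**Figure D5:**
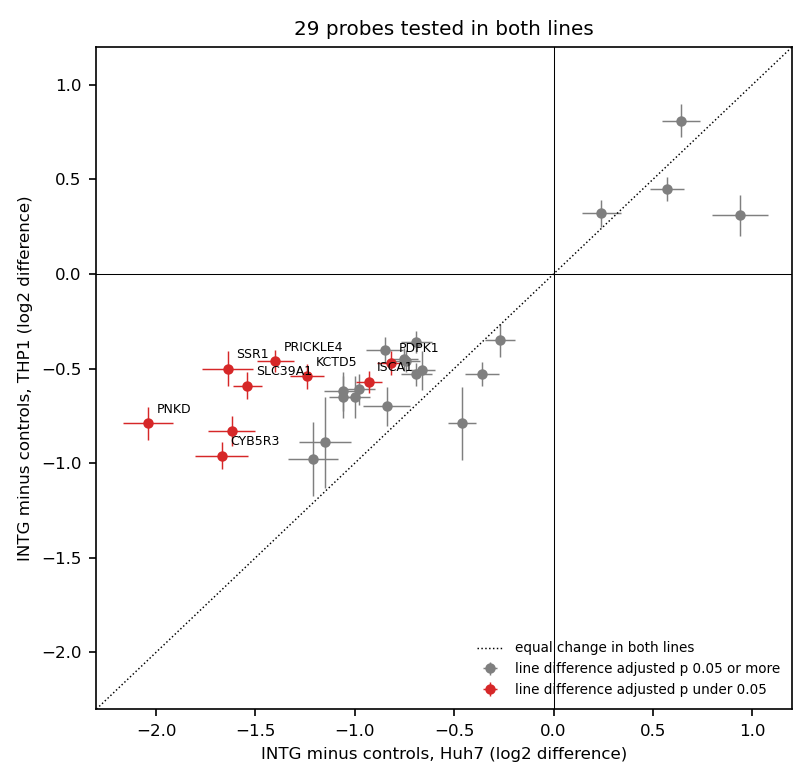
Log2 difference between INTG and controls in Huh7 (horizontal) and THP1 (vertical) for the 29 of 36 probes tested in both lines, with SE bars over 4 experiments; red marks the 9 probes whose difference between lines passed adjustment. All 9 lie above the dotted line of equal change, with PNKD at -2.04 and -0.79.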

How the data were processed

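RNA from 24 THP1 wells was measured on Illumina bead arrays; the 24 Huh7 arrays entered the normalization and the comparison between lines. The deposited files hold, per the file headers, a mean signal intensity and a detection p-value for each of 48803 probes. The authors also deposited processed intensity values in 1 table, used as an alternative; lumi and limma are named per the submitters' processing notes, and how they were applied is not given in the sources used here.

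Signals of 48795 probes (8 had blank values) were background-corrected, quantile normalized over 48 arrays and log2-transformed (limma 3.58.1 neqc, offset 16, R 4.3.3). The wells of an experiment were averaged. A probe was tested if its detection p was under 0.01 on at least 8 of 24 THP1 arrays, which 13524 were. The limma model had siRNA and experiment as terms, with Benjamini-Hochberg adjustment over all tested probes and a threshold of 0.05. Intervals are 95%. Experiment is a block because its number marks a culture passage shared by all siRNAs: deviations from group means correlated at 0.458 to 0.918 between siRNAs of an experiment, and at -0.77 to 0.571 between experiments. Gene names came from the platform annotation, updated through Entrez identifiers; 28092 probes had 1 symbol, 13 several and 20690 none. The code was tested on simulated data.

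The members and gene lists were chosen with earlier results of these data known. Genes were named if past the threshold; if among the 12 highest or lowest at p under 0.01 with INTG either above or below both controls every time; if among the 10 highest or lowest past the threshold without experiment 4 or its dim arrays; if neighbours of the target; if among the 4 smallest p under 0.05 of a list; if among the 5 largest repeats per direction; or if among the 3 smallest p per direction between controls. Some genes that met this rule are left out of the text, among them NFATC3 on the lower side and CA2 on the higher. The 11 further genes outside this rule are given as such. For several probes the one with the smallest p was used, and in lists the brightest. The number of arrays limits the precision. Alternatives were other blocks, single wells, other normalizations and filters, array weights, brightness as a covariate and experiments left out.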

Additional observations from a re-analysis of the deposited data

Results flagged for a closer look

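The ratio of INTG to control mean signal in experiment 4, 0.462, lay far from the other 3 experiments. Of 82 probes of the genes given in the text, 11 (13.4%) also had an INTG-minus-control difference in experiment 4 far from the other 3. No other experiment was picked out. Chance picks out about 1 in 20 groups, but that rate does not hold here. The reason is that 7 of the 11 probes were named for differences that passed without experiment 4 or its dim arrays. OLIG1 (-2.18), H2BC12 (-2.03), TNFAIP3 (-1.96), CTSB (-1.86), KPNA3 (-1.84), SEL1L3 (-1.71), ADA2 (-1.63), KCNMB1 (-1.60), S100A10 (-0.73) and TNRC6C (-0.43) were lower in experiment 4 than before, and FAM43A (-0.17) lost its positive difference there.

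The INTG difference was tested between THP1 and Huh7 at 71 of these probes, and 20 passed a limma adjusted p under 0.05, as did 2.6% of all 11542 shared probes; most of the 71 were named for their difference in THP1. Values are the THP1 minus the Huh7 log2 difference. Where positive, the change in THP1 was less negative or more positive: PNKD 1.25, SSR1 1.14, SLC39A1 0.95, PRICKLE4 0.94, CYB5R3 0.80 and 0.71 at its 2 probes, EGR1 0.76, TAB1 0.74, KCTD5 0.70, E2F2 0.54, PHF19 0.50, MMS19 0.44, FBXW2 0.44, ITGA5 0.43, MYB 0.37, ISCA1 0.36 and PDPK1 0.36. SPRY4 (-1.11), BATF3 (-0.72) and GNA13 (-0.65) went the other way.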

How the results depend on the processing

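All 36 probes kept their sign under every alternative that tested them, while the number called varied. The alternatives re-use the arrays that chose these 36 probes, so the kept sign is a description and no independent check. The count of 6 for INTG against the controls became 201 with wells as separate arrays, 41 with no background correction, 139 with detection required on all 24 arrays, 3 with no detection filter, 259 with array weights (78 up, 181 down), 29 with brightness as a covariate, 36 without the 2 dim arrays, 282 on the discovery slide and 0 on the validation slide (900 by unadjusted p). Leaving out 1 experiment gave 0 to 19, with 19 without experiment 4. The count of 1 against both controls became 52, 9, 50, 0, 80, 1, 8, 66 and 0 in the same order, and 0 to 0 with 1 experiment left out. The count of 19 without experiment 4 became 340, 160, 172 and 3 in the order of the first 4, 221 with array weights and 37 with the authors' processed values. The 61 of 282 discovery calls that were repeated became 283 of 1033, 106 of 320 and 97 of 201 in the order of the first 3, 132 of 947 with brightness and 0 of 0 with the authors' values. With no replicate block, so without the pairing by experiment, all these counts were 0 (417 and 147 probes by unadjusted p in the fits with and without experiment 4), and slide as the only block gave 0 too (849 and 694) where it was run; within a phase that fit is the one without a block. NC2 against NC1 gave 0 under every alternative (18 to 1255 by unadjusted p). Of 1372 single-probe values 1367 kept their direction; the 5 that reversed were all PSMD5, at -0.03 with array weights, with brightness, without the dim arrays and without experiment 4, and at -0.07 in discovery (-0.03 to 0.15 with 1 experiment left out). The causes were not tested. The dim arrays of experiment 4 limit what low signals can show there.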

Other observations

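In experiment 4 the INTG-minus-control difference depended on the level of the probe. With the 13524 tested probes split into 4 equal sets by their control level, its median was -0.60 in the lowest set, -0.95 in the next, -0.14 in the third and -0.04 in the highest. In experiments 1 to 3 the medians of all 4 sets lay between 0 and 0.01.

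Across the 13524 probes, which are not independent replicates and share the controls of each experiment, INTG differences of experiments 1 and 2 had a Pearson r of 0.438. It was 0.139 for experiments 1 and 3 and 0.156 for experiments 2 and 3. Experiment 4 had 0.0917, 0.0855 and 0.0672 with experiments 1, 2 and 3.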
